A study of Mus musculus with 18 samples.

Results

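Phgdh, Psat1, Psph, Shmt1, Shmt2, Mthfd2, Mthfd1l, Aldh1l2, Aldh18a1 and Pycr1 encode enzymes of serine synthesis, of the folate-bound one-carbon cycle and of proline synthesis. The 10 genes were taken by symbol from the count columns of 3 deposited RNA-seq tables of mouse esophageal organoids, each with 24421 genes, and all 10 were found in all 3 tables. Their levels are given as CPM, the count divided by the library total and scaled to 1000000. Organoids are small epithelial structures grown from tissue cells in Matrigel. All 18 libraries were labelled Trp53-/-, with Myc overexpression (Myc OE) and a guide against Cdkn2a (sgCdkn2a), so by label every control carries these alterations too.

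The 6 groups were the following. Tumor organoids that also carried sgTgfbr2 were cultured for 72 h before treatment. They were given 2 µM pinaverium bromide (PB), a calcium channel blocker, in 3 libraries, or vehicle (DMSO) in 3 libraries. Premalignant organoids carried sgTgfbr2 in 4 libraries or the control guide sgScr in 3 libraries. The 4 sgTgfbr2 libraries divide by title into sgTgfbr2_1 and sgTgfbr2_2, called line 1 and line 2 here, with 2 libraries each. Libraries labelled tumor organoids carried sgTgfbr2 in 2 cases or sgScr in 3 cases. The labels do not say whether the lines are guides, clones or cultures, nor what drives Myc, how long PB was given, or the age of the animals. The one growth medium described contains 2 µM A83-01, which blocks signalling by the type I receptor for TGF-beta, beside EGF, FGF10, Wnt-3A, R-spondin and Noggin. Tgfbr2 encodes the TGF-beta type II receptor, and the study asked what its loss does in esophageal squamous cancer models.

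Serine is made from a glycolytic intermediate in a short chain in which Phgdh oxidises phosphoglycerate, Psat1 adds an amino group from glutamate and Psph removes the phosphate. Shmt1 in the cytosol and Shmt2 in mitochondria then split serine into glycine and a one-carbon unit bound to folate, which Mthfd2 and Mthfd1l carry on to formate in mitochondria while Aldh1l2 oxidises it to carbon dioxide there. Aldh18a1 and Pycr1 make proline from glutamate in mitochondria, and several of these genes are known targets of ATF4, a transcription factor of amino acid and stress responses.

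In the GENCODE annotation of GRCm38 the 3 serine synthesis genes lie on the minus strand, Phgdh on chromosome 3, 98313170 to 98339990, Psat1 on chromosome 19, 15904678 to 15947337, and Psph on chromosome 5, 129765558 to 129787449. Shmt1 lies on chromosome 11, 60788104 to 60811718 and Shmt2 on chromosome 10, 127517123 to 127522444, both on the minus strand. Mthfd2 lies on chromosome 6, 83305691 to 83325908 (minus strand), Mthfd1l on chromosome 10, 3973118 to 4167081 (plus strand), and Aldh1l2 on chromosome 10, 83487450 to 83534140 (minus strand). Aldh18a1 lies on chromosome 19, 40550257 to 40588463 and Pycr1 on chromosome 11, 120635712 to 120643769, both on the minus strand. The RefSeq promoter table for GRCm38.p6, with 250 bases before and 50 bases after each start, held 10 windows for 9 of the 10 genes. The motif TGATGNAA, the core of the site bound by ATF4 with a C/EBP partner, was searched on both strands and was found in 1 of the 10 windows, that of Pycr1, against 3.97% of all 32851 windows. The E-box CACGTG, which Myc and other factors can bind and which reads the same on both strands, was found in 1 window, that of Aldh18a1, against 7.15% of all windows. The 250 bases before these starts are shown because Pycr1 and Aldh18a1 catalyse neighbouring steps and differed in the premalignant organoids. There the log2 fold change in sgTgfbr2 was 1.12 for Pycr1 and -0.28 for Aldh18a1, whose groups overlapped and whose call did not hold under several alternatives. A link between the motifs and these values was not tested. The capitals mark the motif, at 103 bases before the start of Pycr1 and 59 bases before that of Aldh18a1.
Pycr1, chr11:120643749-120643998, minus strand: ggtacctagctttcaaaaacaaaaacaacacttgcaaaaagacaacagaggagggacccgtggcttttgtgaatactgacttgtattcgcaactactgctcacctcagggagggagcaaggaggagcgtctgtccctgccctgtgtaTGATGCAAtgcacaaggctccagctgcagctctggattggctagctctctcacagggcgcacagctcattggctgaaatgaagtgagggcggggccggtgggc
Aldh18a1, chr19:40588464-40588713, minus strand: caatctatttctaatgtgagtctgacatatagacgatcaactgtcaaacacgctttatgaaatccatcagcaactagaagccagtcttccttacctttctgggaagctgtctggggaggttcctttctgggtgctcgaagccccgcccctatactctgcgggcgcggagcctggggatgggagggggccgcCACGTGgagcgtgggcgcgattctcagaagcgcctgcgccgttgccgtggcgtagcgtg
A match describes these letters in this window and shows no binding.

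The libraries held 14993749 to 21784140 counts, so that 3 counts, the most that a count of 0 allows, correspond to 0.138 to 0.200 CPM. Tgfbr2 was at 86.2 to 131 CPM in the premalignant sgTgfbr2 libraries, against 179 to 219 CPM in premalignant sgScr, and at 67.5 and 71.2 CPM in the libraries labelled tumor sgTgfbr2, against 112 to 129 CPM in those labelled tumor sgScr. In these 2 tables it was thus lower, but still counted, in sgTgfbr2. In the PB and vehicle libraries, which carry sgTgfbr2 and have no sgScr control in their table, it averaged 68.3 ± 1.32 CPM in PB and 96.8 ± 5.24 CPM in vehicle (SD, n = 3 each). The 5 libraries labelled tumor sgTgfbr2 and tumor sgScr stood apart from the other 13. Fibroblast markers summed to 2432 to 2505 CPM in tumor sgTgfbr2 and 2948 to 3168 CPM in tumor sgScr, with 8 of 8 genes counted in both, against 0.193 to 4.69 CPM elsewhere. Immune markers summed to 891 to 964 CPM (8 of 8 counted) in tumor sgTgfbr2 and 985 to 1021 CPM (7 of 8, Cd3e at 0) in tumor sgScr, against 14.9 to 60.8 CPM elsewhere, where Lyz2 and Tyrobp were at 0. Skeletal muscle markers reached 216 to 260 CPM in tumor sgTgfbr2 (7 of 10 counted, with Myh2, Myh8 and Tnnc2 at 0) and 18901 to 19401 CPM in tumor sgScr (10 of 10), against 4.80 to 10.6 CPM elsewhere. Gastric and columnar gland markers summed to 28242 to 31368 CPM in tumor sgTgfbr2 (9 of 9 counted) and to 1.95 to 2.69 CPM in tumor sgScr (4 of 9, with Gkn1, Gkn2, Tff1, Tff2 and Muc5ac at 0). Squamous epithelial markers were all counted, 21768 to 22433 CPM in tumor sgTgfbr2 and 118651 to 127305 CPM in tumor sgScr. Myc averaged 72.5 ± 29.3 CPM in tumor sgTgfbr2 and 44.7 ± 2.86 CPM in tumor sgScr (SD, n = 2 and 3), below the 289.8 to 647 CPM of the other 13 libraries. Cdkn2a averaged 152 ± 22.7 CPM in tumor sgTgfbr2 and 0.547 ± 0.556 CPM in tumor sgScr, where 1 library had 0 counts, against 266 to 382 CPM in the other 13 libraries. These values go against the label of epithelial organoids with Myc OE, so these 5 are called libraries labelled tumor below, a name that leaves out the PB and vehicle libraries, which were labelled tumor organoids too but lacked these marker levels. The part of cell makeup in the results on these libraries was not tested, and fewer cells of a type cannot be told apart from less RNA per cell in bulk samples.

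**Figure D1:**
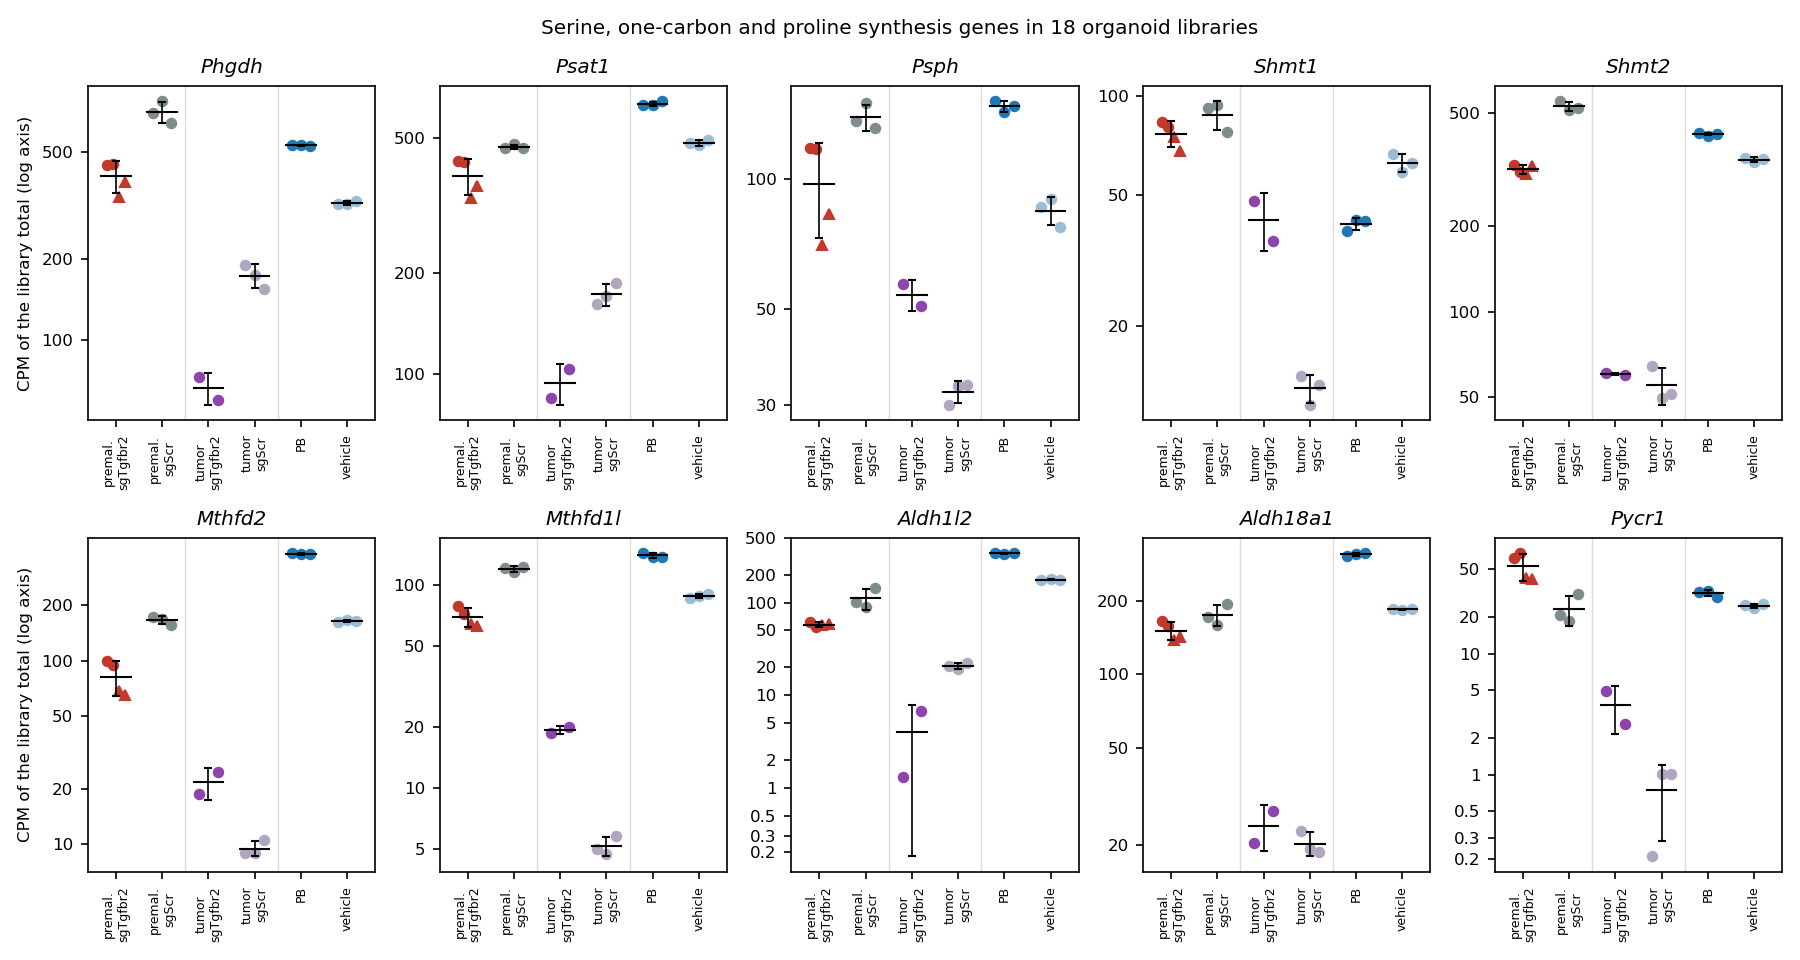
Level of each of the 10 genes in every library, in CPM of the library total on a log axis, for the 6 groups. Points are libraries (triangles: premalignant sgTgfbr2 line 2), and bars are the mean ± SD. In all 10 genes the libraries labelled tumor lie below the vehicle libraries, and Aldh1l2 reaches down to 1.30 CPM and Pycr1 to 0.211 CPM there.

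All 10 genes were counted in all 18 libraries and passed the filter on low counts in every comparison. As CPM per kilobase of exon, Phgdh was the highest of the 10 in all 6 groups, with 212 in PB, 129 in vehicle, 163 in premalignant sgTgfbr2 and 283 in premalignant sgScr. In libraries labelled tumor sgTgfbr2 it stood at 26.6 per kilobase, ahead of Psat1 at 22.2 and Shmt2 at 19.4, and in those labelled tumor sgScr at 69.5. Each length is the union of all annotated exons, not of the transcripts expressed, and the order of genes depends on it. In CPM alone Psat1 was above Phgdh in PB (631 and 528), vehicle (485 and 322) and tumor sgTgfbr2 (94.3 and 66.0). Phgdh was the higher in both premalignant groups, and the genes were alike in tumor sgScr (173 CPM each). Pycr1, the reductase of the last proline step, was the lowest in 4 groups, at 8.01 in PB, 6.27 in vehicle, 5.95 in premalignant sgScr and 0.190 in tumor sgScr. Aldh1l2 was the lowest in the other 2, at 7.73 per kilobase in premalignant sgTgfbr2, where Pycr1 stood at 13.5, and at 0.534 in tumor sgTgfbr2, where Pycr1 stood at 0.961. In CPM alone Pycr1 was below Aldh1l2 there too, at 53.2 against 58.0 CPM in premalignant sgTgfbr2 and 3.78 against 4.01 CPM in tumor sgTgfbr2. The range over the 18 libraries was narrowest for Psph, with a highest value 5.05 times the lowest, and Psat1, 7.56 times. It was widest for Pycr1, 323 times on a lowest library of 4 counts, and Aldh1l2, 266 times.

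PB was given to tumor sgTgfbr2 organoids, and this comparison asks what the drug did to the transcripts. Of the 10 genes 9 rose in PB, Mthfd2 the most at 2.57-fold, and Shmt1, the cytosolic serine hydroxymethyltransferase, fell. Across the 12801 genes tested, 36.5% were called higher and 36.8% lower in PB. The median log2 fold change of the 10 genes was 0.83, against -0.01 for all genes tested. Calls rest on edgeR's quasi-likelihood test with Benjamini-Hochberg adjustment over all genes tested, called edgeR adjusted p below, with a threshold of 0.05. Log2 fold changes are on libraries scaled by trimmed mean of M-values (TMM) and carry their standard error. The 3 libraries of each group lay very close, and the labels do not say whether they came from separate cultures, so a p-value here reflects only how these libraries scatter, which may be technical.

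All 3 serine synthesis genes rose. Phgdh, the first enzyme of the chain, was at 531, 528 and 525 CPM in PB, against 318, 318 and 329 CPM in vehicle (log2 fold change 0.85 ± 0.02, edgeR adjusted p = 2.39e-42). Psat1, the aminotransferase, was at 625, 626 and 643 CPM in PB, against 484, 476 and 495 CPM in vehicle (log2 fold change 0.52 ± 0.02, edgeR adjusted p = 6.22e-31). Psph, the phosphatase of the last step, was at 152, 144 and 148 CPM in PB, against 86.5, 89.9 and 77.5 CPM in vehicle (log2 fold change 0.94 ± 0.04, edgeR adjusted p = 1.16e-33). In each gene the lowest PB library was above the highest vehicle library. Summed, the 3 genes averaged 1307 ± 9.54 CPM in PB and 891 ± 8.84 CPM in vehicle (SD, n = 3 each). Phgdh has 19 near copies in the mouse transcript set, with at least 90% identity over 200 bases or more. The 2 of them that the tables list summed to at most 0.581 CPM in any library. How the counting divided reads between Phgdh and these copies is not given in the sources used here, so its level is uncertain to that extent. Psph shares 10.4% of its exon bases with Cct6a on the opposite strand. Cct6a, a chaperonin subunit, had a log2 fold change of 0.36 (edgeR adjusted p = 2.09e-20) in PB, and whether the counting used strand is not given, so the reads of the shared bases cannot be told apart.

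The mitochondrial folate genes rose as well, and the cytosolic enzyme fell. Mthfd2, the mitochondrial methylenetetrahydrofolate dehydrogenase, was at 388, 379 and 382 CPM in PB, against 162, 166 and 164 CPM in vehicle (log2 fold change 1.36 ± 0.03, edgeR adjusted p = 7.2e-52). Aldh1l2 was at 346, 336 and 343 CPM in PB, against 175, 181 and 175 CPM in vehicle (log2 fold change 1.09 ± 0.03, edgeR adjusted p = 9.87e-46). Neither gene's groups overlapped, and the fitted rise was 2.57-fold for Mthfd2 and 2.12-fold for Aldh1l2. Mthfd1l, the mitochondrial formate-producing synthetase, averaged 139.7 ± 3.91 CPM in PB and 88.3 ± 1.57 CPM in vehicle (log2 fold change 0.80 ± 0.03, edgeR adjusted p = 1.47e-31). Shmt2 averaged 422 ± 3.75 CPM in PB and 344 ± 6.24 CPM in vehicle (log2 fold change 0.44 ± 0.02, edgeR adjusted p = 1e-25). Shmt2 thus moved least of the 4 mitochondrial genes. Shmt1 was at 38.9, 41.9 and 41.8 CPM in PB, against 66.8, 58.6 and 62.7 CPM in vehicle (log2 fold change -0.48 ± 0.05, edgeR adjusted p = 9.43e-13). All 3 PB libraries were below all 3 vehicle libraries. The ratio of Shmt2 to Shmt1 per kilobase was therefore 12.9 ± 0.627 in PB and 6.86 ± 0.328 in vehicle (SD, n = 3 each). Aldh1l2 shares 14.1% of its exon bases with D10Wsu102e on the opposite strand, which had a log2 fold change of 0.58 in PB (edgeR adjusted p = 2.92e-21). Smcr8 overlaps 4.74% of Shmt1 and Ndufa4l2 overlaps 1.03% of Shmt2, also on the opposite strand. Psat1 and Shmt2 have 1 near copy each, 91.0% and 90.1% identical over their aligned bases, neither of which the tables list.

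Both proline synthesis genes rose in PB. Aldh18a1, which makes the pyrroline intermediate from glutamate, was at 307, 314 and 315 CPM in PB, against 185, 183 and 186 CPM in vehicle (log2 fold change 0.89 ± 0.03, edgeR adjusted p = 6.44e-41). Pycr1 was at 32.4, 32.7 and 29.4 CPM in PB, against 25.0, 23.6 and 25.5 CPM in vehicle (log2 fold change 0.49 ± 0.07, edgeR adjusted p = 1.86e-09). Neither gene's groups overlapped. The ratio of Aldh18a1 to Pycr1 per kilobase was 9.59 ± 0.657 in PB and 7.24 ± 0.240 in vehicle.

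**Figure D2:**
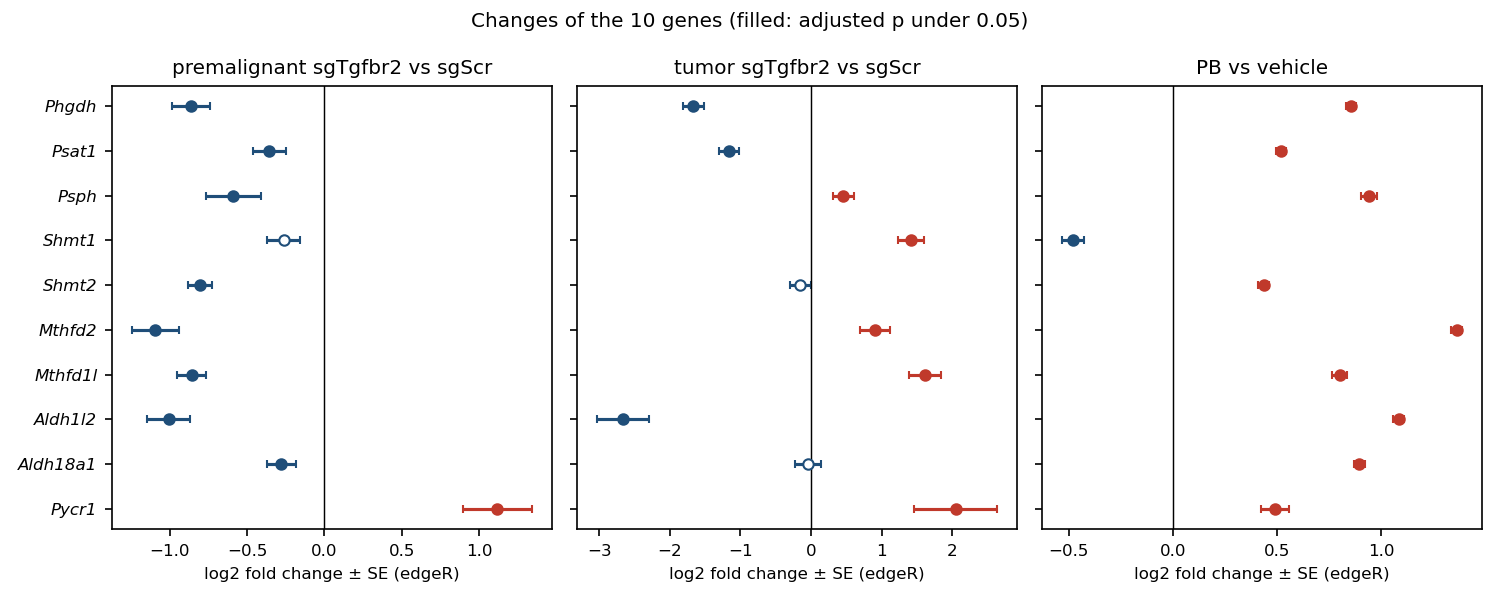
Log2 fold change with its standard error for each of the 10 genes in 3 comparisons: premalignant sgTgfbr2 against sgScr, libraries labelled tumor sgTgfbr2 against tumor sgScr, and PB against vehicle. Each panel has its own scale, and filled points are called at an edgeR adjusted p under 0.05. In PB 9 genes are to the right of 0 and Shmt1 is to the left, while in the premalignant organoids 8 are called to the left and Pycr1 to the right.

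The genes around these pathways moved less evenly in PB, as counts over 8 lists that leave out the 10 genes show. These counts stand against 36.5% called higher and 36.8% lower among all genes tested. The genes named as leading a list have its smallest p-values among those called, and a value in brackets after a gene is its log2 fold change. Of the list of ATF4 regulators and targets, 16 of 22 tested rose and 4 fell (median log2 fold change 0.57). Its leading genes were Ddit3, a stress-induced transcription factor (3.27), Atf3, which fell (-1.45), and Aars, the alanyl-tRNA synthetase (1.13). Atf4 itself averaged 707 ± 6.55 CPM in PB and 437 ± 8.02 CPM in vehicle (log2 fold change 0.83, edgeR adjusted p = 1.14e-42). Of the amino acid transporters 8 of 12 rose and 3 fell, led by Slc3a2 (1.57), Slc7a5 (1.31) and the cystine carrier Slc7a11 (1.16). The folate and glycine cleavage list, without the 10 genes, had 5 of 18 higher and 9 lower (median -0.06). Its leading genes were Dld (0.54), Fpgs, which adds glutamate tails to folates (-1.12), and Mthfd1, the cytosolic counterpart of the mitochondrial folate enzymes (0.20). Mthfd1 averaged 152 ± 4.52 CPM in PB and 146 ± 4.56 CPM in vehicle, and the ratio of Mthfd2 to Mthfd1 in CPM was 2.52 ± 0.0513 in PB and 1.13 ± 0.0299 in vehicle. The proline and glutamine list had 6 of 14 higher and 7 lower, among them Asns, the asparagine synthetase (1.12), P4ha1, a prolyl hydroxylase subunit (-1.16), and Got1 (1.24).

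Of the serine use and transsulfuration genes 3 of 10 rose and 4 fell, led by Cth, the cystathionine gamma-lyase (1.88), Gss (0.48) and Sptlc1 (-0.44). The shares of this list were near those of all genes tested, 36.5% higher and 36.8% lower. The methionine cycle list, which also holds the polyamine and salvage genes Srm, Sms and Mtap, had 5 of 9 higher and 1 lower. It was led by Mat2a (-1.14), Ahcy (0.53) and Ahcyl1 (0.33). Nucleotide synthesis genes had 5 of 19 higher and 8 lower, led by Rrm2 (-1.19), Pfas (-0.87) and Ppat (-0.96), all of which fell. Of the proliferation genes 1 of 20 rose and 16 fell, led by Mcm7 (-0.87), Mcm3 (-0.67) and Mcm5 (-0.73). Myc averaged 349 ± 4.74 CPM in PB and 409 ± 6.39 CPM in vehicle. With libraries scaled by their totals instead of TMM, the median log2 fold change of all genes shifted to -0.15, and 3301 genes rose while 6155 fell, against 4666 and 4713 with TMM. Under it the 10 genes had 9 higher and 1 lower with a median of 0.69, while the lists shifted toward lower calls. It gave 16 higher and 6 lower genes in the ATF4 list, 6 and 3 in transport, 4 and 3 in the methionine cycle and 5 and 8 in the proline and glutamine list. The folate list had 1 higher and 11 lower, serine use 2 and 7, nucleotide synthesis 3 and 12, and proliferation 18 lower with no other called. The gland list moved beside these results, with sums of 455 to 460 CPM in PB and 718 to 729 CPM in vehicle (5 of 9 counted in each). Gkn2, Tff1 and Tff2 were at 0 in both groups, as were Gkn1 in PB and Pgc in vehicle. The list also holds the keratins Krt8 and Krt18. Squamous markers moved as well, at 7503 to 7572 CPM in PB and 9306 to 9440 CPM in vehicle (7 of 7 counted in each). The part of these markers was not tested.

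In premalignant organoids the comparison asks what sgTgfbr2 did before tumor formation. Of the 10 genes 8 fell in sgTgfbr2, Mthfd2 and Aldh1l2 the most at 2.14-fold and 2.01-fold, while Pycr1 rose 2.17-fold and Shmt1 was not called. Across the 13098 genes tested, 22.7% were called higher and 23.5% lower. The median log2 fold change of the 10 genes was -0.70, against -0.00 for all genes tested. The 4 sgTgfbr2 libraries came from 2 lines, and libraries of 1 line are not independent, so these p-values may be too small.

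In serine synthesis Phgdh fell the most. It was at 338 and 387 CPM in line 2 and 447 and 451 CPM in line 1, against 697, 769.7 and 641 CPM in sgScr (log2 fold change -0.86 ± 0.12, edgeR adjusted p = 0.000767). Psph was at 70.4 and 83.02 CPM in line 2 and 119 and 117 CPM in line 1, against 136, 150.2 and 131 CPM in sgScr (log2 fold change -0.59 ± 0.18, edgeR adjusted p = 0.0225). Psat1 was at 333 and 361 CPM in line 2 and 428 and 424 CPM in line 1, against 469, 479 and 468 CPM in sgScr (log2 fold change -0.36 ± 0.11, edgeR adjusted p = 0.0207). All sgTgfbr2 libraries were below all sgScr libraries in each gene, and line 2 was the lower line throughout. Cct6a, which overlaps Psph, had a log2 fold change of -0.43 (edgeR adjusted p = 0.0406).

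The 4 mitochondrial folate genes fell together. Mthfd2 was at 68.2 and 65.3 CPM in line 2 and 99.2 and 94.7 CPM in line 1, against 173, 169.7 and 157 CPM in sgScr (log2 fold change -1.10 ± 0.15, edgeR adjusted p = 0.000635). Aldh1l2 was at 57.6 and 59.1 CPM in line 2 and 61.2 and 54.0 CPM in line 1, against 102, 89.2 and 144 CPM in sgScr (log2 fold change -1.01 ± 0.14, edgeR adjusted p = 0.000625). The sgScr libraries of Aldh1l2 were spread more widely than the sgTgfbr2 libraries, but the groups did not overlap. Mthfd1l averaged 69.6 ± 7.59 CPM in sgTgfbr2 and 120.3 ± 3.83 CPM in sgScr (log2 fold change -0.86 ± 0.09, edgeR adjusted p = 0.000235). Shmt2 averaged 318 ± 11.9 CPM in sgTgfbr2 and 529 ± 20.3 CPM in sgScr (log2 fold change -0.80 ± 0.08, edgeR adjusted p = 0.000141). Both were lower in all 4 sgTgfbr2 libraries than in any sgScr library. Summed, the 4 genes averaged 527 ± 31.9 CPM in sgTgfbr2 (n = 4) and 928 ± 33.5 CPM in sgScr (n = 3). Shmt1 was at 74.9 and 67.8 CPM in line 2 and 83.6 and 80.8 CPM in line 1, against 91.7, 93.7 and 77.7 CPM in sgScr, and the groups overlapped (log2 fold change -0.26 ± 0.11, edgeR adjusted p = 0.0684). The Shmt2 to Shmt1 ratio per kilobase was 5.20 ± 0.541 in sgTgfbr2 and 7.58 ± 0.763 in sgScr, with no overlap between the groups.

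The proline genes moved in opposite directions. Pycr1 was at 42.4 and 41.0 CPM in line 2 and 61.2 and 68.1 CPM in line 1, against 20.9, 18.4 and 30.9 CPM in sgScr (log2 fold change 1.12 ± 0.22, edgeR adjusted p = 0.00351). All sgTgfbr2 libraries were above all sgScr libraries, and these were the highest Pycr1 levels of the series. Aldh18a1 was at 139 and 142 CPM in line 2 and 166 and 158 CPM in line 1, against 172, 159.6 and 194 CPM in sgScr, and its groups overlapped (log2 fold change -0.28 ± 0.09, edgeR adjusted p = 0.0353). The ratio of Aldh18a1 to Pycr1 per kilobase was 2.84 ± 0.511 in sgTgfbr2 (n = 4) and 7.46 ± 1.22 in sgScr (n = 3). The calls of Aldh18a1, Psat1 and Psph each rest on single libraries. Without sgScr replicate 1 their adjusted p-values by edgeR were 0.085, 0.0628 and 0.0604, without sgScr replicate 2 they were 0.051, 0.0781 and 0.095, and without line 2 replicate 2 they were 0.123, 0.0694 and 0.0683, so that 5 genes were called lower each time. Aldh18a1 also lost its call without sgScr replicate 3 (0.109), line 1 replicate 2 (0.0561) or line 2 replicate 1 (0.0833), while Shmt1 gained one without sgScr replicate 3 (0.0218).

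Lists of neighbouring pathways held more lower than higher genes, except for transport. Among all genes tested 22.7% were called higher and 23.5% lower, and the share of transporters called higher was near the former. Of the folate and glycine cleavage genes 12 of 19 fell and 2 rose, led by Mthfd1 (-0.74), Gcsh of the glycine cleavage system (-1.01) and the folate carrier Slc19a1 (-0.86). Of the proline and glutamine genes 7 of 14 fell and 2 rose, led by the glutamine synthetase Glul, which rose (2.36), Oat (-0.67) and Aldh4a1 (-0.54). Of the ATF4 list 8 of 22 fell and 1 rose, with Atf5 (-1.67), Atf3, which rose (1.03), and Atf4 itself (-0.85, edgeR adjusted p = 0.000831). Atf4 averaged 243 ± 34.5 CPM in sgTgfbr2 and 415 ± 34.9 CPM in sgScr. Of the nucleotide synthesis genes 12 of 19 fell and 1 rose, led by Atic (-1.27), Gmps (-0.65) and Umps (-0.95). Of the serine use and transsulfuration genes 5 of 10 fell and 1 rose, with Cth (-1.74), Sptlc1 (-0.57) and Ptdss2, which rose (0.61).

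In the methionine cycle list 5 of 9 fell and 2 rose, led by the polyamine gene Srm (-1.23), Gnmt (-0.97) and Ahcyl2 (-0.55). Of the transporters 3 of 12 rose and 1 fell, which were Slc6a14 (1.81) and Slc36a4 (0.55) among the risen and Slc7a5 (-1.04) as the only one fallen. Of the proliferation genes 11 of 20 fell and 1 rose, led by Mcm5 (-1.02), Mcm3 (-0.76) and Mcm4 (-0.77). With libraries scaled by their totals 3409 genes were higher and 2564 lower, against 2979 and 3078 with TMM, and 7 of the 10 genes were lower, Aldh18a1 being the one lost. Fewer genes were then lower in the folate list (9), nucleotide synthesis (11) and serine use (4), and the proline and glutamine list had 3 higher. Beside these results, the gland list summed to 1148 to 1224 CPM in sgTgfbr2 (7 of 9 counted) and 822 to 871 CPM in sgScr (5 of 9). Gkn2 and Tff1 were at 0 in both groups, as were Pgc and Tff2 in sgScr. Squamous markers summed to 5376 to 8145 CPM in sgTgfbr2 and 9533 to 10003 CPM in sgScr (7 of 7 in both). Immune markers summed to 35.1 to 60.8 CPM in sgTgfbr2 and 14.9 to 27.8 CPM in sgScr (4 of 8 in both). The part of these markers was not tested.

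The 2 premalignant sgTgfbr2 lines differed from each other in 4 of the 10 genes. Psat1, Psph, Mthfd2 and Pycr1 were lower in line 2, and no other was called. Brackets below give the log2 fold change ± SE and then the edgeR adjusted p, or that p alone. Among the 13438 genes tested in this contrast, 13.2% were called higher and 13.1% lower in line 2. Psph averaged 76.7 CPM in line 2 and 118 CPM in line 1 (log2 fold change -0.62 ± 0.11, edgeR adjusted p = 0.00116). Mthfd2, with values given above, had a log2 fold change of -0.53 ± 0.10 (edgeR adjusted p = 0.00104), Pycr1 of -0.63 ± 0.16 (0.0123) and Psat1 of -0.29 ± 0.09 (0.0273). The libraries of the 2 lines did not overlap in any of these genes. For Shmt2 (-0.02 ± 0.09, 0.916) and Aldh1l2 (0.02 ± 0.16, 0.93) the difference between the lines was within its standard error. Phgdh stood at -0.30 ± 0.11 (edgeR adjusted p = 0.0591). Each line has 2 libraries, and the labels do not say whether they are separate cultures. The calls of Psat1 and Pycr1 rest on single libraries: Psat1 was not called without line 1 replicate 1, line 1 replicate 2 or line 2 replicate 1 (edgeR adjusted p = 0.173, 0.111 and 0.223), nor Pycr1 without line 1 replicate 2, line 2 replicate 1 or line 2 replicate 2 (0.0888, 0.091 and 0.0907). Without sgScr replicate 3, 7 of the 10 genes were lower in line 2, with DESeq2 6 (Phgdh and Mthfd1l added), and with libraries scaled by their totals 5 (Phgdh added). Cct6a, which overlaps Psph, was lower in line 2 too (-0.47 ± 0.11, 0.00511).

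Set against the same 3 sgScr libraries, each line alone gave the following values. In line 2, 9 of the 10 genes fell, and in line 1, 6 fell, with Pycr1 higher in both. Of all genes tested in these fits, 3686 of 13290 were higher and 3794 lower in line 2. In line 1, 3322 of 13154 were higher and 3155 lower. Mthfd2 had a log2 fold change of -1.39 in line 2 and -0.82 in line 1, and Phgdh -1.03 in line 2 and -0.69 in line 1. Pycr1 had 0.77 in line 2 and 1.43 in line 1. Aldh1l2 stood at -1.002 in line 2 and -0.99 in line 1, and Shmt2 at -0.82 in line 2 and -0.76 in line 1. Shmt1 was called in line 2 (-0.37, edgeR adjusted p = 0.0119) and not in line 1 (-0.14, 0.306). Psat1 (-0.19, 0.0623) and Aldh18a1 (-0.15, 0.19) were not called in line 1. These values share the sgScr libraries and so are not independent of each other.

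The counts in the surrounding lists are given against the 13.2% higher and 13.1% lower among all genes tested in this contrast. The ATF4 list had 9 of 22 genes lower and 2 higher in line 2, with Stc2 (-1.77), Chac1 (-1.38) and Ddit4 (0.84) leading. Atf4 averaged 214 CPM in line 2 and 271 CPM in line 1 (log2 fold change -0.33, edgeR adjusted p = 0.0322). Transporters had 7 of 12 lower and 2 higher, led by Slc6a14 (-1.67), Slc7a11 (-0.98) and Slc7a5 (-0.62). Nucleotide synthesis had 7 of 19 lower and 3 higher. The folate list had 4 of 19 lower and 2 higher, led by Aldh1l1 (1.40), Tyms (-1.29) and Mthfd2l (-1.03). The proline and glutamine list had 3 of 14 lower and 2 higher, serine use 2 of 10 lower and 3 higher, the methionine cycle 2 of 9 higher with no other called, and proliferation 4 of 20 in each direction, counts of a few genes each. Myc was higher in line 2 (0.42, edgeR adjusted p = 0.0293) and Tgfbr2 was lower (-0.43, 0.00915).

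In the libraries labelled tumor, 5 of the 10 genes were higher and 3 lower in sgTgfbr2. Mthfd1l, Pycr1, Shmt1, Mthfd2 and Psph rose, Aldh1l2, Phgdh and Psat1 fell, and Shmt2 and Aldh18a1 were not called. Across the 15091 genes tested, 29.8% were called higher and 30.5% lower, and the median log2 fold change was 0.21 for the 10 genes and -0.02 for all genes. The share of the 10 genes called lower was thus near that of all genes. The labels do not say whether the libraries of a group came from separate tumors or cultures. A p-value here therefore reflects only how these libraries scatter. The marker sums given above differ between these 2 groups as well, most of all for muscle and gland genes, and their part in each result below was not tested.

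Serine synthesis genes did not move together. Phgdh was at 72.3 and 59.8 CPM in tumor sgTgfbr2, against 189.6, 174 and 155 CPM in tumor sgScr (log2 fold change -1.67 ± 0.15, edgeR adjusted p = 2.27e-09). Psat1 was at 85.1 and 104 CPM in tumor sgTgfbr2, against 161, 170.3 and 187 CPM in tumor sgScr (log2 fold change -1.16 ± 0.14, edgeR adjusted p = 1.91e-07). Both sgTgfbr2 libraries were below all sgScr libraries for these 2 genes. Psph was at 57.1 and 50.8 CPM in tumor sgTgfbr2, against 30.0, 33.1 and 33.4 CPM in tumor sgScr (log2 fold change 0.46 ± 0.15, edgeR adjusted p = 0.0125). Psph was above all sgScr libraries in both, and its overlapping gene Cct6a had a log2 fold change of 0.38 (edgeR adjusted p = 0.0129).

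The folate genes differed in direction and size. Aldh1l2 was at 1.30 and 6.71 CPM in tumor sgTgfbr2, against 20.9, 19.0 and 22.1 CPM in tumor sgScr (log2 fold change -2.67 ± 0.37, edgeR adjusted p = 1.9e-06). In tumor sgTgfbr2 these are 24 and 120 counts, so the level there rests on few reads. D10Wsu102e, which overlaps Aldh1l2, had a log2 fold change of 0.21 (edgeR adjusted p = 0.351), and the reads of the shared bases cannot be told apart. Both sgTgfbr2 libraries were below all sgScr libraries but differed widely, and the log2 fold change was -1.94 without sgTgfbr2 replicate 1 and -4.24 without replicate 2. Mthfd1l was at 18.8 and 19.9 CPM in tumor sgTgfbr2, against 5.02, 4.73 and 5.82 CPM in tumor sgScr (log2 fold change 1.61 ± 0.22, edgeR adjusted p = 2.17e-06). Shmt1 was at 48.1 and 36.2 CPM in tumor sgTgfbr2, against 14.1, 11.5 and 13.2 CPM in tumor sgScr (log2 fold change 1.42 ± 0.18, edgeR adjusted p = 7.53e-07). Mthfd2 was at 18.7 and 24.8 CPM in tumor sgTgfbr2, against 8.97, 8.99 and 10.5 CPM in tumor sgScr (log2 fold change 0.91 ± 0.21, edgeR adjusted p = 0.000696). The groups did not overlap in these 3 genes, and sgTgfbr2 was the higher. Shmt2 was at 60.9 and 60.1 CPM in tumor sgTgfbr2, against 64.6, 49.7 and 51.4 CPM in tumor sgScr, and the groups overlapped (log2 fold change -0.15 ± 0.15, edgeR adjusted p = 0.386). The Shmt2 to Shmt1 ratio per kilobase was 1.83 ± 0.349 in tumor sgTgfbr2 (n = 2) and 5.32 ± 0.441 in tumor sgScr (n = 3).

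Of the proline genes Pycr1 was at 4.94 and 2.63 CPM in tumor sgTgfbr2, against 0.211, 1.02 and 1.01 CPM in tumor sgScr (log2 fold change 2.05 ± 0.58, edgeR adjusted p = 0.00464). These are 91 and 47 counts in tumor sgTgfbr2, against 4, 22 and 17 counts in tumor sgScr, so the level rests on few reads. Aldh18a1 was at 20.3 and 27.6 CPM in tumor sgTgfbr2, against 22.9, 19.1 and 18.6 CPM in tumor sgScr, and the groups overlapped (log2 fold change -0.05 ± 0.19, edgeR adjusted p = 0.845). Leaving out sgTgfbr2 replicate 1 ended the calls of Pycr1 (log2 fold change 1.48, edgeR adjusted p = 0.105) and Psph (0.34, 0.136). Scaling by library totals turned the sign of Shmt2 to 0.13 and of Aldh18a1 to 0.24, both not called. The same scaling shifted the median of all genes to 0.26, with 6046 genes higher and 3361 lower, against 4492 and 4603 with TMM. Under it 5 of the 10 genes were higher and 3 lower.

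Most lists in the libraries labelled tumor held more higher than lower genes in sgTgfbr2. Among all genes tested 29.8% were called higher and 30.5% lower, and the ATF4 list below was near these shares. The folate list was near the share called higher, and the proline and glutamine list near the share called lower. Of the transporters 8 of 12 rose and 1 fell, led by Slc6a14 (6.59), Slc1a5 (1.54) and Slc3a2 (1.28). Of the methionine cycle list 7 of 9 rose and no other was called, led by Ahcyl2 (3.13), the salvage gene Mtap (1.56) and Mat2b (1.08). Of the nucleotide synthesis genes 9 of 19 rose and 1 fell, led by Prps2 (1.17), Ppat (1.27) and Paics (0.92). Of the proliferation genes 12 of 20 rose and 2 fell, led by Mcm4 (1.79), Mcm7 (1.28) and Mcm6 (1.43). The folate list had 6 of 19 higher and 2 lower, led by Ggh, which fell (-2.16), Gldc of the glycine cleavage system (2.38) and Aldh1l1, the cytosolic relative of Aldh1l2 (1.53). The ATF4 list had 7 of 22 in each direction, or 10 higher and 6 lower with libraries scaled by their totals, led by Nupr1 (3.35), Atf5 (-1.58) and Eif2ak3 (1.46). Atf4 averaged 350.2 ± 19.1 CPM in tumor sgTgfbr2 and 187 ± 6.50 CPM in tumor sgScr (log2 fold change 0.62, edgeR adjusted p = 0.000192). Serine use had 6 of 14 in each direction, led by Sptlc3 (-3.43), Gclc (2.41) and Sptlc1 (-1.85). The proline and glutamine list had 6 of 15 higher and 5 lower, with Glul (1.53) and P4ha2 (1.63) among its leading genes and a median of -0.01 that became 0.28 under that scaling.

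**Figure D3:**
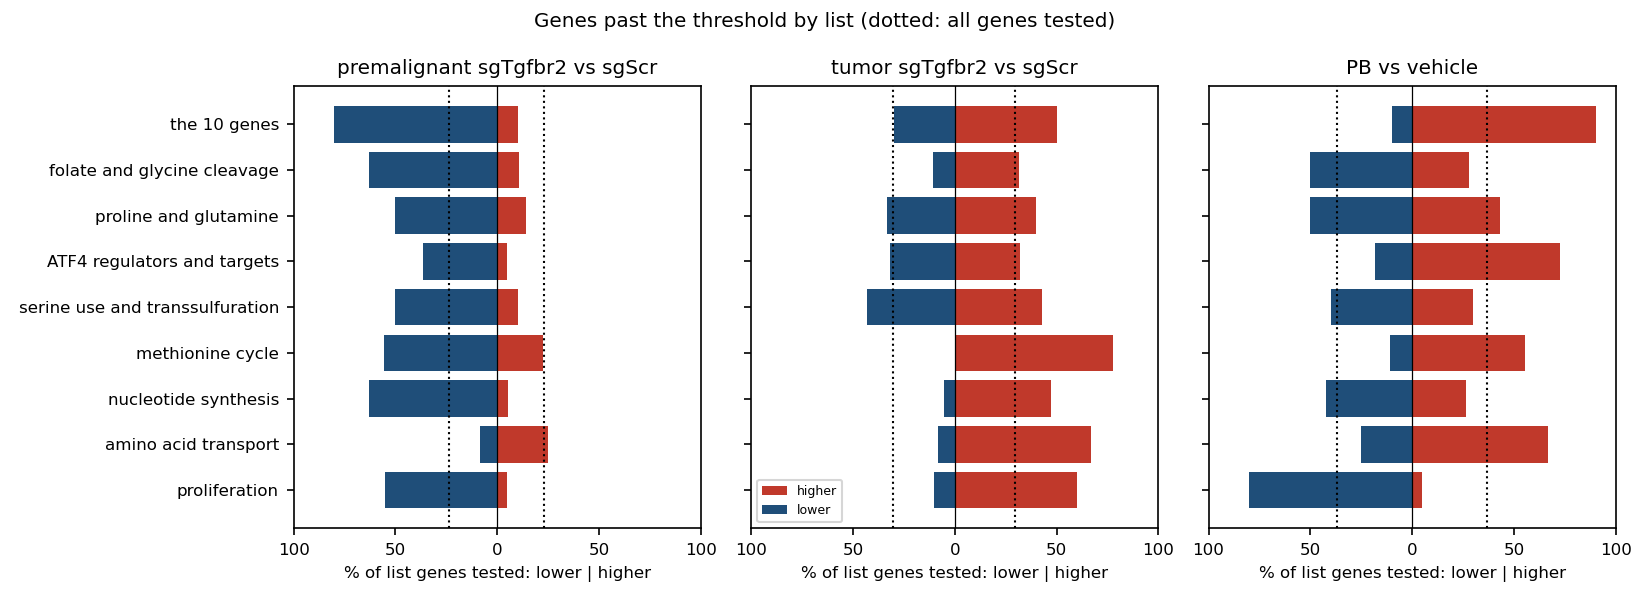
Share of each gene list called higher (right) or lower (left) in 3 comparisons, in percent of the list's tested genes, with the share among all genes tested as dotted lines. The 10 genes stand at 80% lower in premalignant sgTgfbr2 and 90% higher in PB, while in the libraries labelled tumor their lower share of 30% is close to the dotted line at 30.5%.

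The effect of sgTgfbr2 was compared between the 2 stages by the difference of the 2 log2 fold changes, labelled tumor minus premalignant, in 1 model over both tables. Of the 10 genes 8 were called: 5 had a higher effect in the libraries labelled tumor and 3 a lower one. Among the 15671 genes tested, 25% were called higher and 24.5% lower. The tables differ in more than stage, since the libraries labelled tumor hold markers of other cell types, and stage and table cannot be told apart. Libraries of a group or line may not be independent in either table, so these p-values may be too small. Mthfd1l differed the most of the 10 (2.47 ± 0.17, edgeR adjusted p = 1.46e-08), with a log2 fold change of 1.61 ± 0.22 in the libraries labelled tumor and -0.86 ± 0.09 in premalignant organoids. Mthfd2 followed (difference ± SE, then edgeR adjusted p, as for the genes below: 2.00 ± 0.23, 3.64e-06), then Shmt1 (1.68 ± 0.20, 5.94e-06) and Psph (1.05 ± 0.24, 0.00191). Cct6a, which overlaps Psph, had a difference of 0.80 ± 0.20 (0.0037). In Mthfd1l, Mthfd2 and Psph the effect was called in both stages with opposite signs. Shmt2 had a difference of 0.64 ± 0.15 (edgeR adjusted p = 0.00259). The effect was more strongly negative in the libraries labelled tumor for Phgdh (-0.81 ± 0.20, 0.00301), Psat1 (-0.81 ± 0.16, 0.000737) and Aldh1l2 (-1.67 ± 0.45, 0.00601). These 3 genes fell in both stages. For Aldh1l2 the difference was -0.94 without tumor sgTgfbr2 replicate 1 and -3.24 without replicate 2. D10Wsu102e, which overlaps Aldh1l2, had a difference of 0.43 ± 0.18 (0.0555). The differences of Pycr1 (0.93 ± 0.54, 0.169) and Aldh18a1 (0.22 ± 0.18, 0.318) were not called, which does not show that the effects were alike.

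**Figure D4:**
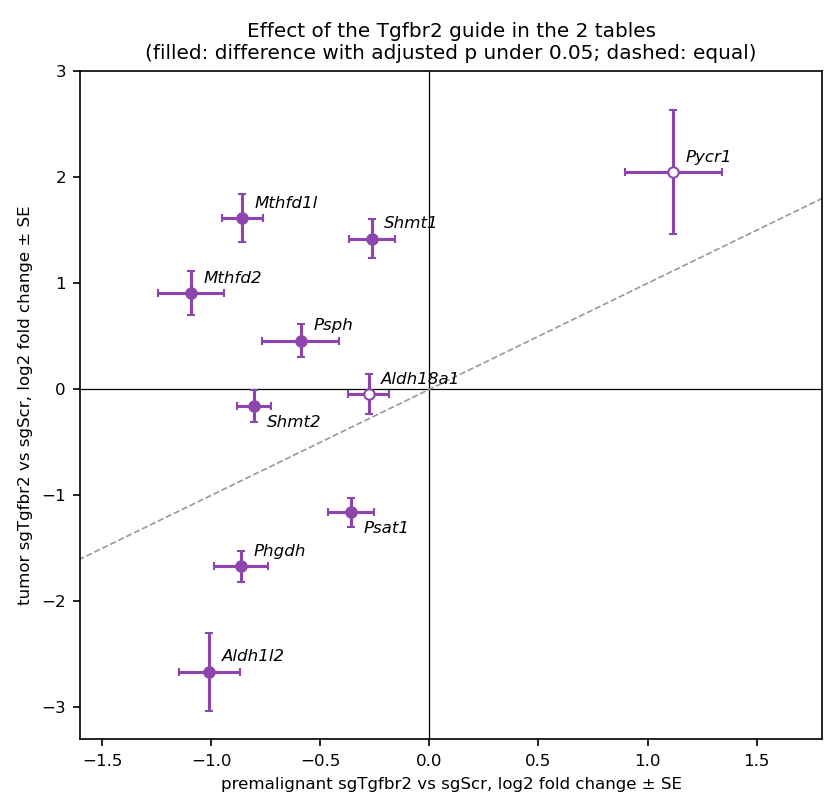
Log2 fold change of sgTgfbr2 against sgScr in the libraries labelled tumor (vertical axis) and in premalignant organoids (horizontal axis) for the 10 genes, with standard errors. The dashed line marks equal effects, and filled points are genes whose difference between the stages was called. Mthfd1l lies farthest above the line, at 1.61 against -0.86, and Aldh1l2 farthest below it, at -2.67 against -1.01.

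Among the lists, the stage difference was called higher for 13 of 19 nucleotide synthesis genes, with no other called. The shares among all genes tested were 25% higher and 24.5% lower. Of the proliferation genes 14 of 20 were higher and 2 lower, and of the folate genes 8 of 19 were higher and 1 lower. Transporters had 7 of 13 higher and 1 lower, the methionine cycle 7 of 9 higher with no other called, and the proline and glutamine list 7 of 15 higher and 4 lower. The ATF4 list had 7 of 22 higher and 4 lower, and serine use 5 of 13 in each direction. Atf4 itself had a difference of 1.46 (edgeR adjusted p = 5.95e-06), and Mthfd1 one of 1.38. With libraries scaled by their totals the median of all genes shifted to 0.20, and 4976 genes were higher and 3058 lower, against 3924 and 3838 with TMM.

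Set side by side over all groups, with lines apart and with no test between tables, the 10 genes fell into a few orders. PB was the highest for Psat1, Psph, Mthfd2, Mthfd1l, Aldh1l2 and Aldh18a1, premalignant sgScr for Phgdh, Shmt1 and Shmt2, and premalignant sgTgfbr2 line 1 for Pycr1. The lowest group was labelled tumor in all 10 genes, tumor sgTgfbr2 for Phgdh, Psat1 and Aldh1l2 and tumor sgScr for the other 7. Neighbours in the order whose ranges overlapped were PB and premalignant sgScr for Psph, vehicle and premalignant sgScr for Psat1, Mthfd2, Aldh18a1 and Pycr1, and vehicle and line 2 for Psph. Ranges also overlapped between line 1 and premalignant sgScr for Shmt1 and Aldh18a1, between line 2 and line 1 for Shmt2 and Aldh1l2, between tumor sgTgfbr2 and PB for Shmt1, and between tumor sgTgfbr2 and tumor sgScr for Shmt2 and Aldh18a1. Vehicle and tumor sgTgfbr2 libraries carry the same genotype by label, yet Aldh1l2 averaged 177 ± 3.51 CPM in vehicle (n = 3) and 4.01 ± 3.83 CPM in tumor sgTgfbr2 (n = 2). Likewise Mthfd2 averaged 164 ± 1.84 CPM in vehicle and 21.7 ± 4.29 CPM in tumor sgTgfbr2. The sum of the 10 genes was 2978 ± 19.0 CPM in PB and 1937 ± 14.1 CPM in vehicle, 1698 ± 184 CPM in premalignant sgTgfbr2 and 2528 ± 36.2 CPM in premalignant sgScr, and 389.8 ± 3.29 CPM in tumor sgTgfbr2 and 502 ± 13.5 CPM in tumor sgScr.

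**Figure D5:**
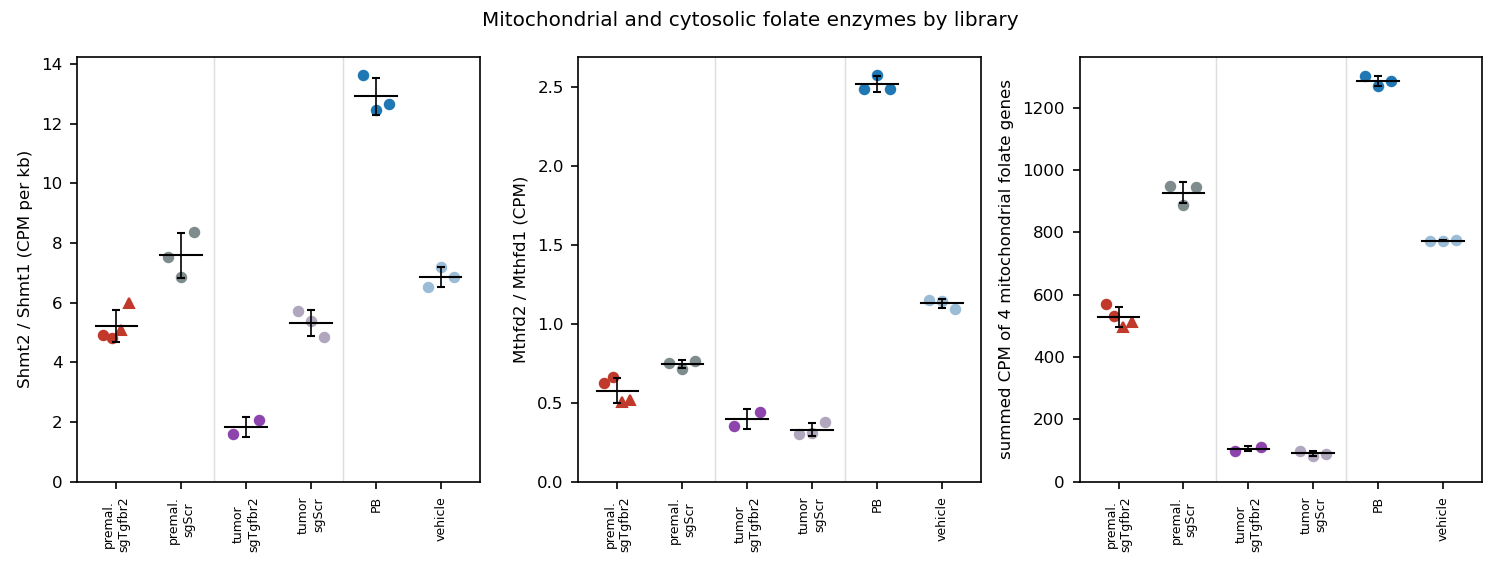
The following 3 measures per library and group: the ratio of Shmt2 to Shmt1 per kilobase, the ratio of Mthfd2 to Mthfd1 in CPM, and the sum of the 4 mitochondrial folate genes in CPM. Points are libraries (triangles: line 2) and bars the mean ± SD. The PB libraries are the highest in all 3 measures, at 12.5 to 13.6, 2.48 to 2.57 and 1271 to 1303 CPM.

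Over the 18 libraries the levels of the 10 genes varied together, as a description of libraries that share tables and depth. The libraries labelled tumor, low in these genes, are included, and no correlation was taken without them. Within each comparison the 10 genes did not all move the same way. Pearson's r of each gene's log2(CPM + 1) with the mean of the other 9 was highest for Shmt2 (0.987), Aldh18a1 (0.985) and Mthfd1l (0.965), and lowest for Shmt1 (0.720). Among the genes outside the 10 most alike to their mean, of 10832 compared, were Nup205 (0.993) and Nup93 (0.989), both of the nuclear pore, Rbm14 (0.988) and Lsm12 (0.987). Nup205 averaged 235 CPM in PB and 217 CPM in vehicle, 191 CPM in premalignant sgTgfbr2 and 234 CPM in premalignant sgScr, and 57.8 CPM in tumor sgTgfbr2 and 45.2 CPM in tumor sgScr. The libraries labelled tumor were low in both Nup205 and the 10 genes. In the authors' deposited table of each of the 3 comparisons, the sign and the side of the 0.05 threshold were those given here for 10 of the 10 genes.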

How the data were processed

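Bulk RNA-seq of 18 libraries was analysed from 3 deposited tables. The raw counts per gene were deposited by the authors, after alignment with STAR 2.6.0a to mm10 per the submitters' processing notes. Strand setting, annotation and counting program were not given in the sources used here. Log2 fold changes and adjusted p-values in the authors' deposited tables come from DESeq2 1.26.0 by the same notes and were used for 1 comparison of signs and calls. A further 18 columns of normalized values were not used. Columns were matched to samples by name.

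Counts of each comparison's table were filtered (filterByExpr, minimum count 10), scaled by TMM and tested two-sided with edgeR 4.0.16 (quasi-likelihood, Benjamini-Hochberg, 0.05) in R 4.3.3. The line contrast was fitted with sgScr in the model, and the stage difference as an interaction over 2 tables. Alternatives were DESeq2 1.42.0, limma-voom 3.58.1, library total scaling, no filter, a 1 CPM filter, a replicate block, each line alone, 1 mean per line, and leaving out each library. Scripts were tested on simulated data. Replicates of 1 group differed by 1.51 to 21.3 times the sampling variance, and none were merged. Exon lengths are from GENCODE for GRCm38.

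The 10 genes and the 8 pathway and 6 marker lists were chosen with earlier results of these data known. The text names, per list, up to 3 genes past the threshold with the smallest p-value, always Atf4, Myc and Tgfbr2 where used, and the 5 genes most alike over libraries with a mean of at least 5 CPM. The lists overlap in part: Tyms stands in the folate and nucleotide lists, and Asns in the proline and ATF4 lists. Some genes that the rule would name are not reported here.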

Additional observations from a re-analysis of the deposited data

Results flagged for a closer look

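The effect of sgTgfbr2 differed between the libraries labelled tumor and the premalignant organoids, by the test of the difference itself, in 8 of the 10 genes. Among the 15671 genes tested, 25% were called higher and 24.5% lower. Stage, table and cell makeup cannot be told apart here. The difference of the log2 fold changes, labelled tumor minus premalignant, was 2.47 for Mthfd1l, 2.00 for Mthfd2, 1.68 for Shmt1, 1.05 for Psph and 0.64 for Shmt2, and -0.81 for Phgdh, -0.81 for Psat1 and -1.67 for Aldh1l2.

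The 2 premalignant sgTgfbr2 lines differed in 4 of the 10 genes, by the test of line 2 against line 1, with log2 fold changes of -0.62 for Psph, -0.53 for Mthfd2, -0.63 for Pycr1 and -0.29 for Psat1. Among the 13438 genes tested, 13.2% were called higher and 13.1% lower in line 2.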

How the results depend on the processing

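All 10 genes kept their direction and their side of the threshold in PB against vehicle under each of 12 alternatives, and in the stage difference under each of 18. In premalignant organoids 8 genes were called lower, and leaving out 1 library gave 5 to 8. The genes called higher there numbered 2979 in all and 1954 to 3018 with 1 library left out, with the fewest, 1954 and 1977, without sgScr replicate 2 or 1. Aldh18a1 lost its call under the 1 CPM filter (edgeR adjusted p = 0.0587), with no filter (0.0627), under library total scaling (0.109) and in line 1 alone (0.19), and Shmt1 gained one with 1 mean per line (0.0137). In the libraries labelled tumor 5 genes were called higher, and 3 to 5 with 1 library left out. The log2 fold change of Aldh18a1 there, -0.05 and not called, was 0.24 under library total scaling, and -0.25 to 0.13 with 1 library left out, above 0 without tumor sgScr replicate 1 or tumor sgTgfbr2 replicate 1, and that of Shmt2 was 0.13 under library total scaling. For line 2 against line 1, where 1768 genes were higher and 1767 lower, leaving out 1 library gave 691 to 2519 higher, 757 to 2528 lower and 2 to 7 of the 10 genes lower. The fewest genes came without line 1 replicate 1. Uncalled values turned sign for Aldh1l2 (0.02; -0.0092 with the 1 CPM filter, -0.0050 with no filter and -0.072 to 0.12 with 1 library left out, below 0 without line 1 or line 2 replicate 2) and for Shmt2 (-0.02; -0.076 to 0.044 with 1 library left out, above 0 without line 1 or line 2 replicate 1). The cause of these changes was not tested.

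The labels do not say whether libraries with the same replicate number belong together. Their deviations from the group means had correlations of -0.104 to 0.143. With 2 or 3 libraries per group or line, these values cannot show whether such libraries share a batch. With a replicate block 2665 genes were higher and 2700 lower in line 2 against line 1, with 8 of the 10 genes lower. In premalignant organoids the block gave 2260 higher and 2479 lower genes, with Aldh18a1, Psat1 and Psph not called (0.16, 0.0675 and 0.0694) and Shmt1 called (0.0431). In the libraries labelled tumor it gave 3739 higher and 3868 lower, and in PB 4670 higher and 4695 lower, and no call on the 10 genes changed there. Depth limits Pycr1 in the libraries labelled tumor sgScr, at 4 to 22 counts, and the 2 tumor sgTgfbr2 libraries limit every value of that group.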

Other observations

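Relatives of the 10 genes, named here after their values were seen, did not follow them throughout. Pycrl, a relative of Pycr1, had a log2 fold change of -0.92 in premalignant sgTgfbr2 against sgScr (edgeR adjusted p = 0.0047), where Pycr1 had 1.12. In PB against vehicle Pycrl had -0.25 (edgeR adjusted p = 0.00956), where Pycr1 had 0.49. In the libraries labelled tumor Pycrl was not called (0.38, edgeR adjusted p = 0.103). Mthfd2l, the mitochondrial relative of Mthfd2, had 0.06 in premalignant organoids (edgeR adjusted p = 0.877), 1.73 in the libraries labelled tumor (1.5e-06) and 0.12 in PB (0.227). The differences between these relatives were not tested.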
